A study of Mus musculus with 74 samples.

Results

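The binding sites of Zfp961, a mouse KRAB zinc finger protein (KRAB-ZFP), were examined against the primer binding sites of endogenous retroviruses. The members are the ChIP-seq peaks deposited under the name Zfp961, which number 1457 of the 53011 peaks of 67 KRAB-ZFPs in the series. Zfp961 was assayed once, in F9 EC cells, a mouse embryonal carcinoma line. The cells overexpressed the protein with an N-terminal 3XFLAG tag from a stably integrated Sleeping Beauty transposon vector, as pools of puromycin-resistant clones, and chromatin was immunoprecipitated with a FLAG antibody (F1804). The comparison set is the 17 other KRAB-ZFPs with the same tag, cell line, antibody and control, which hold 19271 peaks. All 18 samples thus express a tagged protein from a vector, beside the cells' own genes, and each protein has 1 sample, so no value has a replicate error. The peaks were called against input and a FLAG control ChIP, and for Zfp961 at p under 1e-10 with an enrichment over 20, while 6 of the other samples were called at lower thresholds.

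One comparison library stood apart. The library labelled Zfp810, made with another vector (pCW57.1), had no peak in the coding exons of Zfp810 but had peaks in those of Zfp961. The lack of peaks in its own exons is common, since only 4 of 15 FLAG-tagged samples with an annotated coding sequence had them. The library labelled Zfp810 enters no value of Zfp961 itself, only the comparison set. The permutation tests and the share of shared loci are given with and without it. The comparison of core matches and the background of merged loci are given with it.

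KRAB-ZFPs bind DNA through arrays of zinc fingers and recruit the corepressor KAP1 (Trim28). KAP1 brings in enzymes that modify histones and silences transposable elements in early embryonic cells. A retrovirus starts reverse transcription from a host tRNA whose 3′ end pairs with the primer binding site (PBS), a stretch of 18 bases just after the 5′ long terminal repeat (LTR). The PBS is therefore complementary to a tRNA and starts with the bases that pair with its CCA end. Elements primed by lysine tRNAs carry the PBS of the isoacceptor with anticodon CTT (PBS-Lys1,2) or of the one with anticodon TTT (PBS-Lys3).

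The sequences at issue are short and are shown first. PBS-Lys1,2 is the end of an oligonucleotide that the study designed as a Zfp961 target. The paper reports that the Zfp961 motif resembles this site and that Zfp961 repressed it in reporter assays. The same 18 bases were read here from the 3′ ends of the lysine tRNA genes with anticodon CTT in mm9. PBS-Lys3 was read from the 3′ ends of those with anticodon TTT. Capitals mark the 5 positions at which both differ, which from the PBS 5′ end are A9G, C11A, G12C, T13A and G17A going from Lys1,2 to Lys3. The other 13 positions are called the core below. PBS-Pro, the site of proline tRNA in another oligonucleotide of the study, serves as a contrast.
PBS-Lys1,2: tggcgcccAaCGTgggGc
PBS-Lys3: tggcgcccGaACAgggAc
PBS-Pro: tgggggctcgtccgggat

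Zfp961 peaks sat on both lysine sites. The mm9 genome held 60 exact copies of PBS-Lys3, of which 57 lay whole inside the 200 bp window around a Zfp961 summit, or 95% (95% Wilson interval 86.3 to 98.3). For the 64 exact copies of PBS-Lys1,2 the share was 96.9% (89.3 to 99.1). As background, 34.8% of the 1628 genomic lysine-like sites (up to a few mismatches from either PBS) lay in a Zfp961 window. No copy of PBS-Pro did so, 0 of 146 exact copies, which leaves a share of up to 2.56% within the interval. Intervals here cover counting error only, and copies of one element share their sequence by descent. The peaks on PBS-Lys3 had a median enrichment of 82.9-fold (range 25.9 to 154) and a median of 132 tags, against 70.3-fold (20.7 to 134) and 117 tags on PBS-Lys1,2. Both medians lay above the 37.57-fold and 67 tags of the 1457 peaks as a whole. The summit lay at a median of 3 bp before the centre of either PBS, with quartiles of -9.75 and 7 bp for Lys1,2 and -8 and 3 bp for Lys3.

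Exact copies of the primer binding sites found for other tRNAs had next to no peak. A search for tRNA genes by their structure found 230 genes with 28 anticodons in mm9, which gave 22 distinct primer binding sites besides the lysine ones, PBS-Pro among them. These had 1464 exact copies in the genome, of which 1 lay in a Zfp961 peak, a site of the asparagine tRNA (anticodon GTT) with 3 copies in all. The most frequent was the site of the phenylalanine tRNA (anticodon GAA) with 1065 copies and no peak, and the site with anticodons CCC and GCC had 193 copies and no peak. The phenylalanine site differs from the core at 4 positions and the other at 5. Most of the 22 sites had no exact copy in mm9 and could hold no peak, and most of the 1464 copies were of the phenylalanine site. Genes for leucine, serine, glutamine, methionine, isoleucine, tyrosine, tryptophan and histidine tRNAs were not among those found, so their sites were not counted. The tRNA genes themselves overlapped a Zfp961 window in 2 of 230 cases and the lysine tRNA genes in 1 of 19.

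Most Zfp961 peaks held a version of the core. The best match within the window had no mismatch in 210 peaks, 1 in 347, 2 in 340, 3 in 296, and 4 or more in 264. At most 3 mismatches were thus found in 1193 peaks (81.9%, interval 79.8 to 83.8), against 28 of 1457 windows placed 1 kb before the same summits (1.92%) and 32 of 1456 windows 1 kb after them (2.2%). At most 1 mismatch was found in 557 peaks (38.2%) and in 1 and 0 of the displaced windows. The matches lay on either strand, with 102 of the 210 intact cores on the plus strand.

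**Figure D1:**
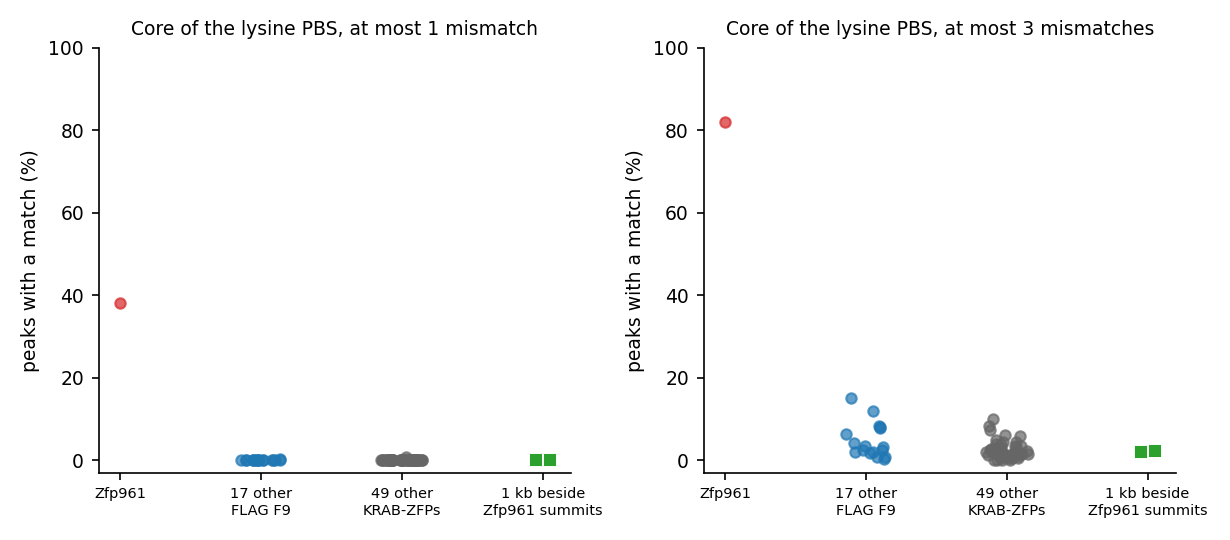
Share of peaks whose 200 bp window held the core with at most 1 (left) or at most 3 (right) mismatches, in percent. Each circle is a KRAB-ZFP sample, and the squares are windows 1 kb before and after the Zfp961 summits. Zfp961 stood at 38.2% and 81.9%, and the highest other sample was Zfp273 with 0.714% (left) and Gm13152 with 15.1% (right).

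The same search was run in the other samples. A match to PBS-Lys1,2 with up to 2 mismatches was present in 202 Zfp961 peaks (13.9%, interval 12.2 to 15.7), while the mean share in the 17 other FLAG-tagged samples was 0.00113% and the highest was 0.0193% for Gm13152. From the side of the genome, 51.9% of the matches with up to 2 mismatches lay in a Zfp961 peak and a mean of 0.0151% in a peak of another sample. In both cases Zfp961 ranked first of 18, and a two-sided exact permutation of the sample label gave p = 0.0556. This is the smallest p that 18 samples allow, so the design cannot pass 0.05. PBS-Lys1,2 was searched because the study had tied it to Zfp961, through these peaks and through reporter assays. The rank and p are therefore no independent support. Adjusted by Benjamini-Hochberg over the 4 such exact permutation tests run here, p was 0.111. Without the library labelled Zfp810 both shares were the same and p was 0.0588 (exact permutation), the smallest for 17 samples. For the core with at most 3 mismatches the other FLAG-tagged samples ranged from 0.226% to 15.1% with a median of 3.16%. Gm13152 with 15.1% and Zfp46 with 12% were the highest of them, and both also had many peaks near transcript starts, with 50% and 44.3% within 1 kb. The part of promoter sequence in these matches was not tested.

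Peaks were higher the closer the site was to the core. The median enrichment was 74.1-fold for an intact core (quartiles 54.5 and 95.7), 45.4-fold with 1 mismatch (32.4 and 79), 36.3-fold with 2 (27.2 and 58.8), 31.1-fold with 3 (24.6 and 45.4) and 27.2-fold with 4 or more (23.3 and 35.1). Median tags fell in the same order from 134 to 84, 64.5, 52 and 44. The ranges overlapped widely, and the rank correlation over the 1457 peaks was -0.502 for enrichment and -0.451 for tags, as a description of peaks that share 1 ChIP. Of the 146 peaks with the highest enrichment, 142 held the core with at most 3 mismatches (97.3%), and of the 146 with the lowest 85 did (58.2%). The summit lay within 25 bp of the centre of the match in 182 of the 210 peaks with an intact core (86.7%) and in 78% of those with 3 mismatches, but in 43.6% of those with 4 or more.

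**Figure D2:**
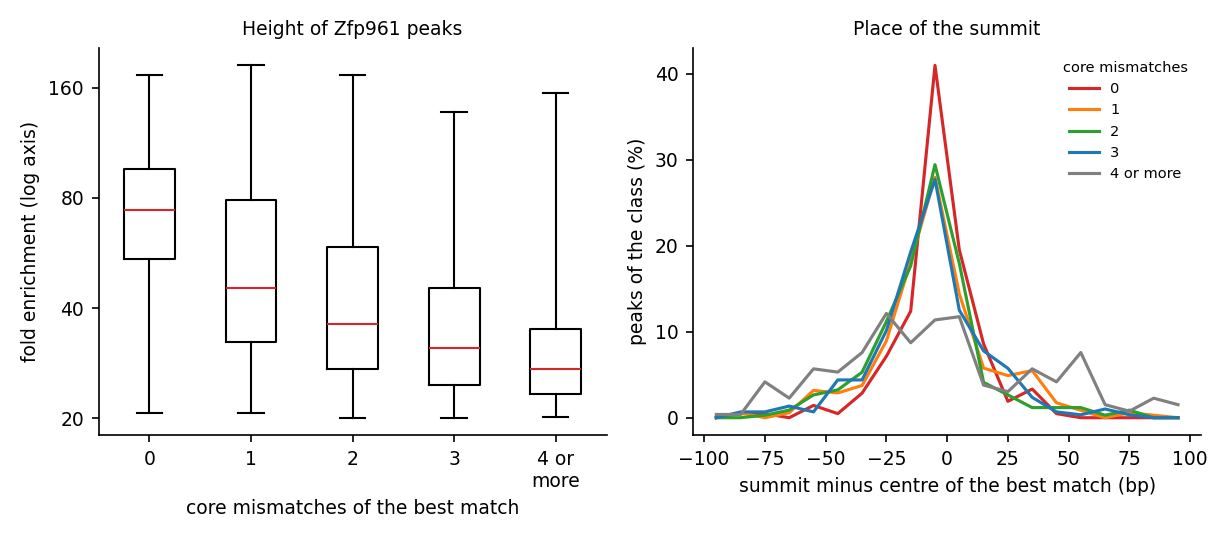
Left, fold enrichment of Zfp961 peaks on a log axis by the mismatches of the best core match. Boxes give quartiles, the red line the median and whiskers the range, and the medians fall from 74.1 to 27.2. Right, distance in bp from the centre of the match to the summit, as the percent of peaks in each class per 10 bp. The first 4 classes peak near 0, and the class with 4 or more mismatches is spread out.

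To see which bases of the PBS went with a peak, every genomic site with an intact core, with 1 core mismatch, or with up to 2 mismatches to PBS-Lys1,2 or PBS-Lys3 over the full length was collected from the mm9 sequence alone. There were 1628 such sites, of which 566 lay in a Zfp961 peak. With an intact core 210 of 233 sites did (90.1%, interval 85.6 to 93.3), and with 1 core mismatch 349 of 1275 (27.4%, interval 25 to 29.9). The 5 positions outside the core could vary at an intact core: with T at position 11, as in C11T, 28 of 30 sites had a peak, and with A there 75 of 80. With A or G at position 9 the shares were 93.4% and 93.8%, and with A or T at position 13 they were 94.7% and 93.2%. At position 12 the shares were 94.2% for G, 93.2% for C and 70.6% for A (24 of 34), and G at position 11 had 7 of 8 sites in a peak. The counts were 6 of 14 sites for C at position 9, 3 of 10 for G at position 13 and 1 of 8 for T at position 17. These 3 counts and that for A at position 12 include the same 7 sites without a peak, copies of 1 sequence on chromosome 4 described below, and the shares rest on them: 1, 0, 0 and 3 other sites with C at position 9, G at 13, T at 17 and A at 12 lacked a peak.

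Over all sites, the lowest shares within the core were at positions 4 to 7. A change at position 4 left 9 of 415 sites in a peak (2.17%, interval 1.15 to 4.07), a change at position 6 left 6 of 39, and a change at position 5 left 69 of 288 (24%). At positions 1, 2 and 3 the shares were 47.4%, 53.3% and 36.7%, over 30 sites or fewer each. From position 10 on they were 64.2% at position 10 (43 of 67), 58.7% at position 14, 59.3% at position 15, 55.7% at position 16 and 82.2% at position 18 (37 of 45). The shares differed by the new base. G5A had 67 of 135 sites in a peak (49.6%, interval 41.3 to 58), while G5T had 0 of 113 (interval up to 3.29%) and G5C 2 of 40. At position 4, C4A had 0 of 257, C4G 0 of 44 and C4T 9 of 114. At position 6, C6A had 5 of 7, whereas C6G had 0 of 15 and C6T 1 of 17. At position 18, C18T had 17 of 18. Many of these sites are copies of a few repeats, so the shares were also taken over the sites that fell in no sequence group: 3 of 191 at position 4, 47 of 183 at position 5, 31 of 55 at position 10 and 27 of 34 at position 18. Position 8 was the one that moved most, from 77 of 210 over all sites to 3 of 35 (8.57%) over sites in no group. Over those sites only position 4 had a lower share.

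**Figure D3:**
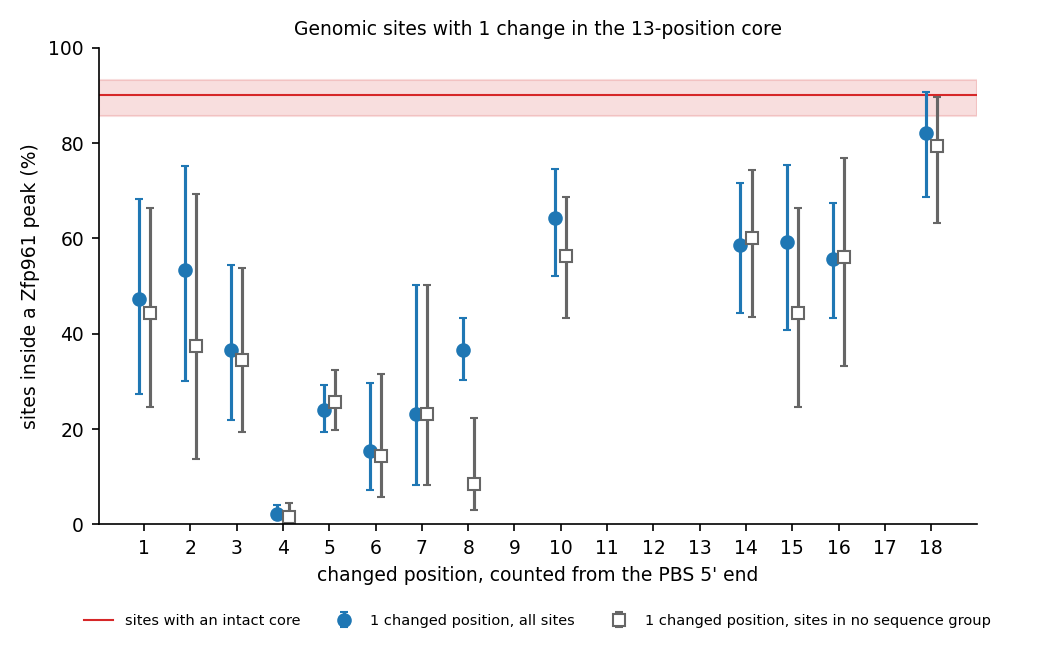
Percent of genomic sites inside a Zfp961 peak when exactly 1 core position differs, by that position counted from the PBS 5′ end. Filled circles are all sites, open squares sites in no sequence group, bars are 95% Wilson intervals, and the red line and band are the 90.1% of sites with an intact core. Position 4 lies near 0 and position 18 nearest to the line.

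The sites were sorted by the 200 bases after the PBS, without use of the peaks: sites that share at least 20 12-mers there form a sequence group. This gave 8 groups of 20 or more sites with 726 sites, 35 smaller groups with 148 sites, and 754 sites in no group, of which 298, 46 and 222 lay in a peak. Groups are numbered by size. An LTR element repeats its LTR at its other end, so for each site the 40 bases that end 5 bases before the PBS were searched for 0.5 to 12 kb downstream on the same strand, at an identity of at least 80%. Such a second copy was found for 72.1% of the sites of group 1, 71.1% of group 3, 66.3% of group 4 and 63.2% of group 6, for 36.7% of group 7 and 20% of group 8, and for 4.31% of group 2 and 0% of group 5. Its median distance was 6761 bp in group 1, 6936 bp in group 3, 5177 bp in group 4 and 6957 bp in group 6.

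The following sequences show 30 bases on either side of the PBS, in capitals, at the site with the highest enrichment for the commonest intact-core version of groups 1, 3, 4, 6 and 7, all in mm9. Group 8, with 1 intact core (60.89-fold) and 5 of 20 sites in a peak, is not shown. They let the flanks be compared between groups: groups 1 and 4 share stretches on either side of the PBS, and groups 3 and 7 share bases before it.
Group 1, chr16:31374400-31374477, plus strand: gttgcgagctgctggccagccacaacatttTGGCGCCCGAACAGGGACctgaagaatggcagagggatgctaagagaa
Group 3, chr10:41494568-41494645, plus strand: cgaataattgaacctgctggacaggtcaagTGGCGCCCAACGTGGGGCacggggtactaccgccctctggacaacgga
Group 4, chr8:19077476-19077553, plus strand: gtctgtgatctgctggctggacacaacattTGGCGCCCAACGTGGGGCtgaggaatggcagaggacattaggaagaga
Group 6, chr7:52051371-52051448, plus strand: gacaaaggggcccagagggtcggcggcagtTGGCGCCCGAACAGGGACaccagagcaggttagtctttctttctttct
Group 7, chr1:103188115-103188192, minus strand: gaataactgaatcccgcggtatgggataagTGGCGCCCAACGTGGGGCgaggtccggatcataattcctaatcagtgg

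These 5 sites had enrichments of 154.18-fold with 363 tags (group 1), 109.74-fold with 192 tags (group 3), 133.88-fold with 291 tags (group 4), 112.72-fold with 218 tags (group 6) and 103.65-fold with 118 tags (group 7). The site of group 3 lies in an intron of Cep57l1, a gene for a centrosomal protein of the Cep57 family, and the others lie in no annotated gene. The groups were tied to names only through oligonucleotides of the study. The oligonucleotide named Rex2_MMETn, of the MMETn retrotransposon, matched 42 of the 95 sites of group 4 at a median of 164 bp after the PBS 5′ end, on the opposite strand. Gm13154_ETnERV2-int matched 40 of the 57 sites of group 6 at 502 bp, Gm13152_RLTR13B1 matched 31 of them at 6916 bp, near the distance of the second LTR copy, and Gm13139_RMER16-int matched 15 of the 30 sites of group 7 at 898 bp. Gm13051_MMETn matched 26 of the 201 sites of group 1 at 4078 bp, 17 of group 4 at 4309 bp and 8 of group 7 at 4124 bp. Groups 1 and 3 are left unnamed.

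The share of sites in a peak ranged widely between these groups. It was 73.7% in group 4 (70 of 95), where the commonest site is PBS-Lys1,2 with 38 copies, of which 37 had a peak. It was 63.2% in group 1 (127 of 201), 56.1% in group 3 (64 of 114), 40% in group 7 (12 of 30) and 31.6% in group 6 (18 of 57). Among the sites with an intact core the same groups had 55 of 56, 39 of 39, 34 of 38, 7 of 7 and 17 of 20. With 1 core mismatch they had 14 of 31, 87 of 144, 29 of 71, 3 of 17 and 1 of 34. Groups 2 and 5 have no intact core, their commonest versions carry C4A, and they had 0 of 116 and 2 of 93 sites in a peak. A site of group 5 without a peak, with C4A, C12A and A17G against PBS-Lys3, is shown beside the commonest version of group 1, which has C8A and A13T against it.
Group 5, chr1:8823338-8823415, plus strand: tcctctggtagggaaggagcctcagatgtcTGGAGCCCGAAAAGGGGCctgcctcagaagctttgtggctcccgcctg
Group 1, chr14:50828268-50828345, minus strand: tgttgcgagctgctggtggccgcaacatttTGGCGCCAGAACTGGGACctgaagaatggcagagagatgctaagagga

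Versions of the PBS within a group gave graded peaks. In group 1 the 33 exact copies of PBS-Lys3 all had a peak, at a median of 97.2-fold. Its 81 copies with C8A and A13T had a peak in 46 cases (56.8%, interval 45.9 to 67) at a median of 36.8-fold, its 24 copies with C8T in 19 at 55.3-fold, and its 7 copies with C8G and A13T in 6 at 42.1-fold. In group 6 the exact copies of PBS-Lys3 had a peak in 15 of 17 cases at a median of 35-fold, and the copies with C8T in 0 of 18. The intervals for the C8T version, the same 18 bases in both groups, were 59.5% to 90.8% in group 1 and 0% to 17.6% in group 6. In group 3 the 26 copies with A9G and G16A had 12 peaks at 27.9-fold, the 10 with A9G alone had 9 at 63.1-fold, and the 11 with C8A and A9G had none.

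The LTR of group 1 also had peaks at copies without a PBS. Among the 264 peaks with 4 or more core mismatches, the commonest 24-mer, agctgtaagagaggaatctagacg, was shared by 33. Read on its other strand, it lies 82 bp before the PBS in group 1, near the end of the LTR, which was taken to lie 3 bases before the PBS. Counting copies of it with up to 2 mismatches gave 488 LTR ends in mm9, which were sorted by what follows them. With an intact core after the end, 32 of 32 had a Zfp961 summit within 100 bp, at a median of 95.9-fold. With 1 core mismatch 70 of 103 did (68%), with 2 or 3 mismatches 5 of 24 (20.8%), and with 4 or more 35 of 329 (10.6%, interval 7.75 to 14.4) at a median of 24.6-fold. Of those without a core, 19 of the 135 with another copy of the LTR 0.5 to 12 kb upstream had a summit, and 15 of the 189 with no other copy at these distances on either side. The place of the summit differed: it lay 10.5 bp after the LTR end at the median with an intact core, which is inside the PBS, and 49 bp before the end where 4 or more mismatches followed. Since the mapping placed reads of near-identical copies at 1 of them at random, reads of one LTR copy may be counted at another. Its part in these peaks was not tested. The 24-mer was chosen from these peaks, so the counts are a description.

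The next pair of sequences, in mm9, shows the end of this LTR followed by a PBS (capitals) and by other sequence. The first had an enrichment of 127.02-fold and the second one of 34.08-fold.
With a PBS, chr2:20421830-20421902, minus strand: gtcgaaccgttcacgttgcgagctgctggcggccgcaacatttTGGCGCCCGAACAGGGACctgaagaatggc
Without a PBS, chr13:3509408-3509480, plus strand: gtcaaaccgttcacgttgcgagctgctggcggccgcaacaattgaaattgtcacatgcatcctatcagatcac

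**Figure D4:**
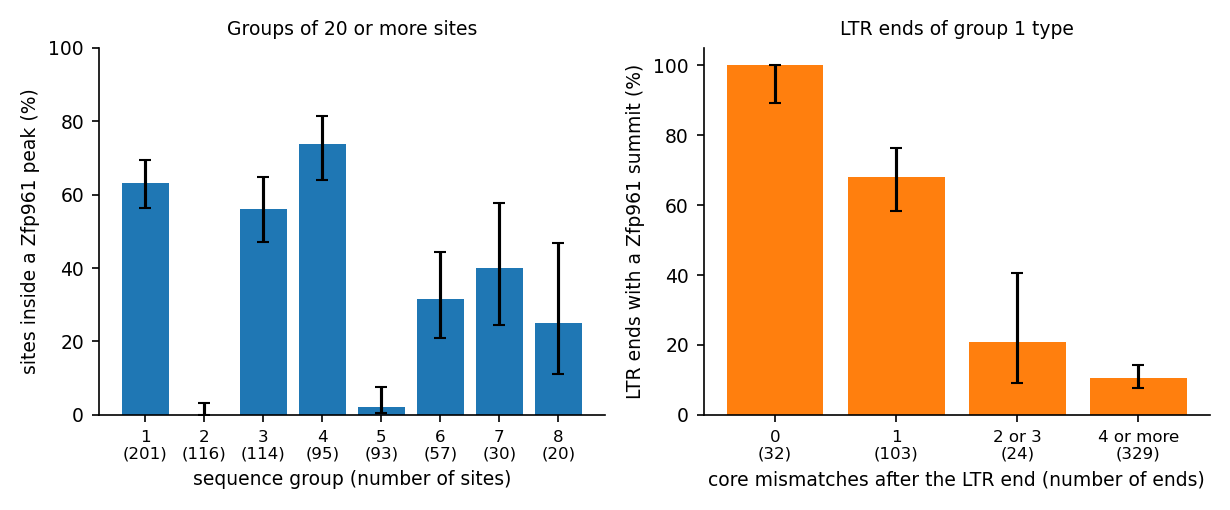
Left, percent of the genomic sites of each sequence group inside a Zfp961 peak, with the number of sites in brackets. Right, percent of LTR ends of the group 1 type with a Zfp961 summit within 100 bp, by the core mismatches of the sequence that follows. Bars on the columns are 95% Wilson intervals. The columns on the left run from 0% (group 2) to 73.7% (group 4), those on the right from 100% to 10.6%.

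A small number of intact sites had no peak. Of the 23 sites with an intact core outside every Zfp961 window, 7 were copies of 1 sequence on chromosome 4, tggcgccccacaggggtc, which has C at position 9, G at position 13 and T at position 17, and these 7 sites formed a sequence group of their own. Both exact copies of PBS-Lys1,2 without a peak, at chr13:22249418-22249435 and chr15:50426650-50426667, had the second LTR copy downstream and lay 217072 and 1306353 bp from the nearest summit. Of the 3 such copies of PBS-Lys3, those at chr5:123989704-123989721 and chrX:27328481-27328498 belonged to group 6, and the one at chr4:29330960-29330977 to no group. Intact cores with and without a second LTR copy had a peak in 92.7% (115 of 124) and 87.2% (95 of 109) of cases. A missing peak can also mean that reads were too few or could not be placed there, and the depth of the library is unknown.

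Some other KRAB-ZFPs had summits at narrow ranges of distance from these sites. In group 4, 16 of the 70 sites with a Zfp961 peak had a Rex2 summit at a median of 172 bp after the PBS centre (quartiles 166.5 and 176.8), and 8 had a Zfp600 summit at 180 bp. In group 1, 9 of 127 had a Rex2 summit at 343 bp (quartiles 337 and 350), so its quartile ranges in both groups did not overlap. Zfp738 had summits at 6 sites of group 1, spread around a median of 4026 bp with quartiles of 3687 and 5204. Gm13051 was the only FLAG-tagged protein among those named here, with summits at 31 of the 70 sites of group 4 (median 4202 bp, quartiles 4175 and 4332) and at 27 of the 127 of group 1, where they were spread from 3014 to 6184 bp between quartiles. In group 7, 10 of the 12 sites had a Zfp808 summit at 798.5 bp and 5 had Gm13139 at 919 bp, proteins chosen after their values were seen. None of these distances falls on the PBS, and of the peaks of each protein 37.3% (Rex2), 7.5% (Zfp600), 12.7% (Gm13051), 3.98% (Zfp738) and 3.12% (Zfp808) lay between 1 kb before and 9 kb after any site with a Zfp961 peak.

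**Figure D5:**
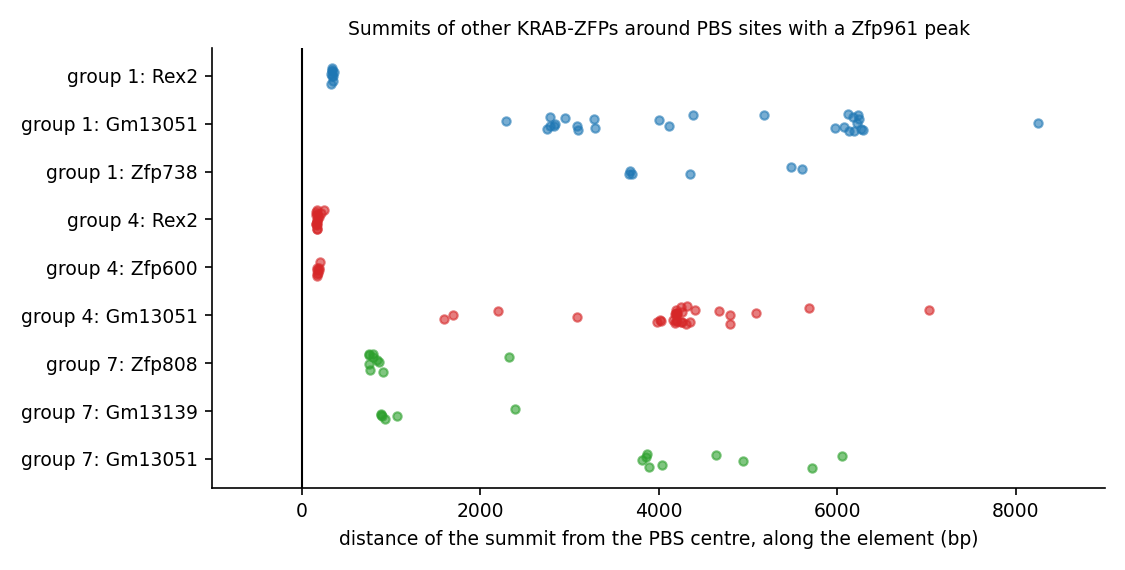
Each point is a summit of another KRAB-ZFP, placed by its distance in bp from the PBS centre of a site with a Zfp961 peak, with the element read from left to right. Colours mark sequence groups 1, 4 and 7, and the line at 0 is the PBS. Rex2 lies near 343 bp in group 1 and near 172 bp in group 4, and Gm13051 gathers near 4202 bp in group 4.

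Zfp961 peaks lay mostly in windows whose 24-mers had few identical copies in the genome. Only identical copies were counted and no repeat annotation was used, so diverged copies of a repeat can also count as single-copy. Single-copy here therefore does not mean outside repeats. The median copy number of the 24-mers in a window was 1 for 1058 peaks (72.6%), and 10 or more for 280 (19.2%, interval 17.3 to 21.3), against a mean of 21.1% in the other FLAG-tagged samples (p = 0.944, two-sided exact permutation of the sample label, adjusted p = 0.944, and 20.2% with p = 0.941 without the library labelled Zfp810). Median enrichment was 37.6-fold at a copy number of 1 and 38.9-fold at 10 or more. An intact core was in multi-copy sequence in 48.1% of its peaks. The share was 24.8% with 1 mismatch, 3.24% with 2, 2.7% with 3 and 28% with 4 or more. Single-copy peaks held the core too, with at most 3 mismatches in 881 of 1058 (83.3%) and at most 1 in 297. In the 584 single-copy peaks with 2 or 3 mismatches, position 8 kept its C in 98.3%, position 4 its C in 95.7% and position 7 its C in 92.1%, while position 10 kept its A in 51% and position 18 its C in 54.1%. Outside the core, position 9 was A in 53.8% and position 17 A in 58.7%, and positions 11, 12 and 13 showed no base above 32.4%. Since the match was picked as the best one of its window, these shares describe the picked matches.

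The 10 peaks with the highest enrichment were all single-copy and had no second LTR copy downstream. They ranged from 160.66 to 183.98-fold, with 335 to 481 tags, and held the core with 0 mismatches (3 peaks), 1 (4) or 2 (3). The highest lay 20001 bp from any transcript start. The sequences of 4 of them are shown as examples of single-copy sites, with the best match in capitals and in mm9.
183.98-fold, chr17:31972690-31972767, minus strand: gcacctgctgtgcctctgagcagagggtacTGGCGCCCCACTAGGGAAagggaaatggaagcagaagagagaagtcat
173.61-fold, chr4:43638296-43638373, minus strand: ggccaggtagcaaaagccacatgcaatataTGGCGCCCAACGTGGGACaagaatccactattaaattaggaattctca
168.43-fold, chr2:132188305-132188382, plus strand: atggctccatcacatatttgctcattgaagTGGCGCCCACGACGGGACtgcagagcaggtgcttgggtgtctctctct
161.95-fold, chr8:122617424-122617501, minus strand: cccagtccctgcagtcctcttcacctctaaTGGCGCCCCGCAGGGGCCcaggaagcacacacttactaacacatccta

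Of the 10 highest peaks 3 lay in gene bodies. The site on chromosome 2 lies in an intron of Prokr2, a prokineticin receptor, the one on chromosome 8 in an intron of Zdhhc7, a palmitoyltransferase, and of Gm20388, and 1484 bp from the start of a transcript of Gm15898. Another of the 10 lies in Grpel2, a mitochondrial co-chaperone, 3431 bp from a transcript start. Over all peaks 4.87% lay in a coding exon, 9.68% in an exon of any kind, 35.6% in an intron and 54.7% outside annotated genes. Within 1 kb of a transcript start lay 164 peaks (11.3%), against a mean of 16.2% in the other FLAG-tagged samples (p = 0.833, two-sided exact permutation of the sample label, adjusted p = 0.944, and 15.3% with p = 0.824 without the library labelled Zfp810). The share was 2.86% for peaks with an intact core and 15.9% for those with 2 core mismatches.

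Among peaks at a transcript start or in a coding exon, the one with the most tags lay in the coding exon of Zfp961 itself and is treated below. The next were in coding exons of Myo7a, an unconventional myosin of sensory hair cells (394 tags, 126.97-fold, 2 core mismatches), Slit1, an axon guidance ligand (363 tags, 142.52-fold), and Nlgn2, an adhesion protein of inhibitory synapses, 1711 bp from the nearest transcript start and within 5 kb of Spem1 (311 tags, 123.08-fold). A peak lay 272 bp from the start of Ephb3, an ephrin receptor (290 tags). Another lay 50 bp from the nearest transcript start, with starts of Gmeb2 and Gm14447 within 5 kb (281 tags). A peak in an exon of Ech1 lay 69 bp from the nearest transcript start, with starts of Ech1 and Lgals4 within 5 kb (264 tags). Others lay 300 bp from a start of Gm13624 in Phospho2 (249 tags) and 109 bp from 2900041M22Rik (221 tags). The last was in a coding exon of Actn3, the alpha-actinin of fast muscle fibres (211 tags, 93.28-fold). All 9 held the core with 1 to 3 mismatches.

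Genes for KAP1 and other silencing factors, among them the KRAB-ZFP gene Zfp809, were listed for Zfp961 peaks. Of these 20 genes, 1 held a summit in its body or within 5 kb of a start, where 2.41% of the 33887 annotated genes did. It was Zfp809 (20.84-fold, 50 tags), so KAP1 and the other factors of the list held none. Zfp809 encodes a KRAB-ZFP that binds PBS-Pro, and its summit had 5 core mismatches and lay 7018 bp from a start. Trim28, Setdb1, the histone methyltransferase partner of KAP1, and the DNA methyltransferases Dnmt1, Dnmt3a, Dnmt3b and Dnmt3l held none. Of the 4 neighbouring KRAB-ZFP genes Zfp617, Zfp709, Zfp882 and Zfp961 on chromosome 8, 1 did, Zfp961.

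Zfp961 had 2 peaks in its own coding exons. The peak at chr8:74492013-74492212 had 459 tags and 84.22-fold enrichment over a called length of 1276 bp, and that at chr8:74489661-74489860 had 37 tags and 42.76-fold, with 5 and 6 core mismatches. Among the 15 FLAG-tagged samples whose protein has an annotated coding sequence, 4 had peaks in their own coding exons, with Zfp46 at up to 419 tags, Zfp617 at up to 259 and Zfp882 at up to 467. The cells carry a coding sequence of the tagged protein on the vector as well. Per the paper it came from cDNA or was synthesized with codon optimization, and which holds for these proteins is not given here. Where its sequence equals that of the gene, reads from the vector and from the gene cannot be told apart. In the library labelled Zfp810, peaks lay at the same places in Zfp961, with 291 tags at 24 bp from the Zfp961 summit and 26 tags at 8 bp on the other side of the second, and none in the coding exons of Zfp810. That library held no peak with a match to PBS-Lys1,2 of up to 2 mismatches and a core of at most 3 mismatches in 4.12% of its 243 peaks. The origin of its peaks in Zfp961 was not tested.

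The overlap of Zfp961 peaks with those of other proteins was counted. Windows that overlapped by at least 25% were found with another FLAG-tagged sample for 28 of the 1457 peaks (1.92%, interval 1.33 to 2.76), and with any other KRAB-ZFP for 48 (3.29%). Without the library labelled Zfp810 the former share was 1.78%. As background, 7.25% of the 20109 merged loci of the 18 FLAG-tagged samples held a Zfp961 peak. How often the peaks of the other samples are shared was not computed, and nothing particular to Zfp961 is read from the share. Gm13152 shared 16 windows, which is 1.1% of the Zfp961 peaks and 0.308% of its own 5189, and Gm13251 shared 3. Both windows shared with Zfp810 were those in the Zfp961 gene. Rex2 shared 6 (8.96% of its 67 peaks) and Zfp600 shared 1 (0.833% of 120). The core with at most 3 mismatches was present in 29 of the 48 shared peaks (60.4%) and in 1164 of the 1409 not shared (82.6%).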

How the data were processed

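Chromatin bound by tagged KRAB-ZFPs was measured by ChIP-seq. Per the labels and methods, the authors mapped reads to mm9 with Bowtie, with multi-mapping reads put at random on 1 of their best places, called peaks per sample with MACS 1.4.2 and set each peak to 200 bp around its summit. The authors deposited for each peak the tags as a raw count, a score (10 times the negative log10 of p), a fold enrichment, which is a ratio, and a false discovery rate in percent. They are used as deposited, and the depth per library is unknown. The table held 53255 peaks, of which 244 carry 1 name that matched no label, and 1 label matched no name; neither was used. The Zfp961 peaks hold 138569 tags.

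Sites were counted in NCBIM37 (mm9), with coordinates counted from 1 on the reading that the deposited starts count from 0, and genes in gencode vM1. The tRNA genes were found by the B box, 7 acceptor pairs and 5 anticodon pairs. Overlapping hits on both strands were counted once, keeping that with the fewest mismatches. A site is inside a peak when its 18 bases lie whole in the 200 bp window. Shares carry 95% Wilson intervals. Sample shares were compared by a two-sided exact permutation of the sample label. Alternatives varied the window, the mismatches, the enrichment, the overlap and the samples. The scan was tested on simulated data. Named genes hold in their body, or have a start within 5 kb of, the 10 highest summits, the 10 highest single-copy summits, or the 10 with the most tags at a transcript start or coding exon, beside the lists given. Members, lists and tests were chosen with earlier results of these data known, and the core was added after seeing the data. Python 3.11.15, NumPy 2.4.6 and Numba 0.67.0 were used.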

Additional observations from a re-analysis of the deposited data

How the results depend on the processing

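The share of Zfp961 peaks with a match to PBS-Lys1,2 stayed above that of the other samples in every alternative tried. With FLAG-tagged samples alone its exact permutation p was the smallest they allow, 0.0556 to 0.0625 for 18 to 16 samples. When all 67 KRAB-ZFPs were compared the share of 13.9% gave an exact permutation p = 0.0149, the smallest that 67 samples allow. It lies under 0.05, but the added samples differ from Zfp961 in tag and partly in cell line, mapping and thresholds. PBS-Lys1,2 was also tied to Zfp961 beforehand, so no conclusion is drawn from this p. The share itself ran from 4.26% with no mismatch to 26.8% with up to 4, and reached 81.9% with the core added after seeing the data. The share of genomic matches in a peak ran from 2.97% with up to 4 mismatches to 96.9% with none. The share of sites with an intact core in a peak moved from 90.1% to 79.4% when peaks were held to an enrichment over 40, since fewer peaks were left, and was 86.5% over sites in no group. Multi-copy shares ran from 7.96% with at least 100 copies to 27.4% with at least 2, and shares near transcript starts from 8.88% with an enrichment over 40 to 24% within 5 kb, without a change in side of the threshold. The share of shared loci was 1.58% to 1.92%. In all, 28 of 30 alternatives kept the direction and the side of the threshold or the interval. Without the Zfp810 sample no direction and no side of the threshold changed. The alternatives on the core, on intact-core sites and on Zfp810 were chosen after seeing the data. No paired analysis was possible because each protein had 1 sample. Depth is unknown, so a site without a peak is not evidence of absent binding.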
